A study of Mus musculus with 11 samples.

Results

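Most members of the SLC25 family are carriers of the inner mitochondrial membrane, and their transcripts were followed in hippocampal astrocytes of adult fed, fasted and ketogenic mice. The set was every gene symbol that starts with Slc25a, without Slc25a20, and each gene was read from the probe set that the array's annotation pairs with that symbol alone, and where a gene had several such sets the brightest by its average across 11 arrays was kept. This gave 45 of the 20259 named genes, 1 of them the pseudogene Slc25a5-ps. All mice carried Aldh1l1-Cre, which is active in astrocytes, and a Ribo-Tag allele, so that an epitope-tagged ribosomal protein was made in the cells in which Cre had acted and the mRNA on those ribosomes could be immunoprecipitated (TRAP). The fed group (4 samples) had 4 weeks of normal chow and the ketogenic group (4 samples) 4 weeks of a high-fat, low-carbohydrate diet. The fasted group (3 samples) was given as 18 h of fasting in one label and as 24 h in another. Samples are numbered as separate biological samples with no more said of the animals, so p-values measure the spread between these samples, which may be technical. Arrays of unpurified tissue were not used here, so how pure the immunoprecipitates were is unknown.

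A typical SLC25 protein is built from repeated pairs of helices and swaps one solute for another, or moves a solute together with a proton, across a membrane that is otherwise closed to charged metabolites. The carriers feed ADP and phosphate to ATP synthase and let ATP out, move citrate, malate, 2-oxoglutarate, aspartate and glutamate between cytosol and matrix, and supply the matrix with amino acids, nucleotides, coenzymes and iron. In brain, astrocytes take up the glutamate released at synapses, and part of it enters their mitochondria, where glutamate dehydrogenase (Glud1) or transamination turns it into 2-oxoglutarate.

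Values are RMA values, read as log2, so that a difference of 1 is a doubling. Signals of the members, averaged over all arrays, ran from 2.78 to 10.01 with a median of 5.23, and the median of all genes was 4.68. The value of 10.01 is that of the set named Slc25a51, which may not read that gene. Odorant receptors, which are hardly transcribed outside olfactory tissue, had a 95th percentile of 3.96, and 10 of the 45 members lay below it (Slc25a2, Slc25a13, Slc25a21, Slc25a31, Slc25a40, Slc25a41, Slc25a43, Slc25a48, Slc25a54 and Slc25a5-ps), against 34.8% of all genes. No member was dropped for a low signal. Within a diet the median SD of a member was 0.13 among fed, 0.13 among fasted and 0.10 among ketogenic arrays.

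The limma array weights were low for fed array 2 (0.251) and fasted array 2 (0.458), and 1.03 to 1.43 elsewhere. Fed array 2 was the lowest fed array for 21 members and the highest for 9. Astrocyte markers (20 of 21 measured) averaged 7.94 to 8.13 on the fed, 7.87 to 8.07 on the fasted and 7.41 to 7.68 on the ketogenic arrays. All 20 were lower in ketogenic than in fed samples, 10 of them past the threshold, beside 0.884% of all genes. Neuron markers (17 measured) averaged 8.05 to 8.10 on the fed, 8.08 to 8.28 on the fasted and 8.19 to 8.22 on the ketogenic arrays, so RNA of other cells was present. On the ketogenic diet 13 of these 17 had a positive difference, beside 10839 of 20259 genes. At an unadjusted limma p under 0.05 there were 6 (35.3%, beside 13.9% of all genes), 5 higher and 1 lower. Oligodendrocyte markers (14 measured) averaged 7.39 to 7.68 on the fed, 6.996 to 7.39 on the fasted and 7.22 to 7.49 on the ketogenic arrays. Of these 14, 13 had a negative fasted difference (median -0.32, 8 with an unadjusted p under 0.05) and 12 a negative ketogenic difference (median -0.18, 6 with such a p), none past the threshold. Over all genes 7.07% had such a p after fasting and 13.9% on the ketogenic diet, and 11343 and 9420 of 20259 differences were negative. Markers of oligodendrocyte precursors, microglia and endothelial and mural cells had median differences of -0.20, -0.02 and 0.07 after fasting and of -0.31, 0.15 and -0.28 on the ketogenic diet. In such pull-downs fewer cells of a type, less RNA per cell and a weaker enrichment of the tagged ribosomes cannot be told apart.

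To ask which carriers differed with diet, the 3 group means were fitted with limma and p-values were adjusted by Benjamini-Hochberg over all 20259 genes, with a threshold of 0.05. A single member passed. Slc25a18, a mitochondrial glutamate carrier, was lower in ketogenic than in fed samples. Of all genes, 0.884% were called in that comparison, 0.281% between fasted and ketogenic samples, and 0% between fasted and fed samples, where no member passed either. The other 44 members did not pass in any comparison, which does not show that they stayed the same, and the plot of differences with their confidence intervals gives the size that each interval allows.

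**Figure D1:**
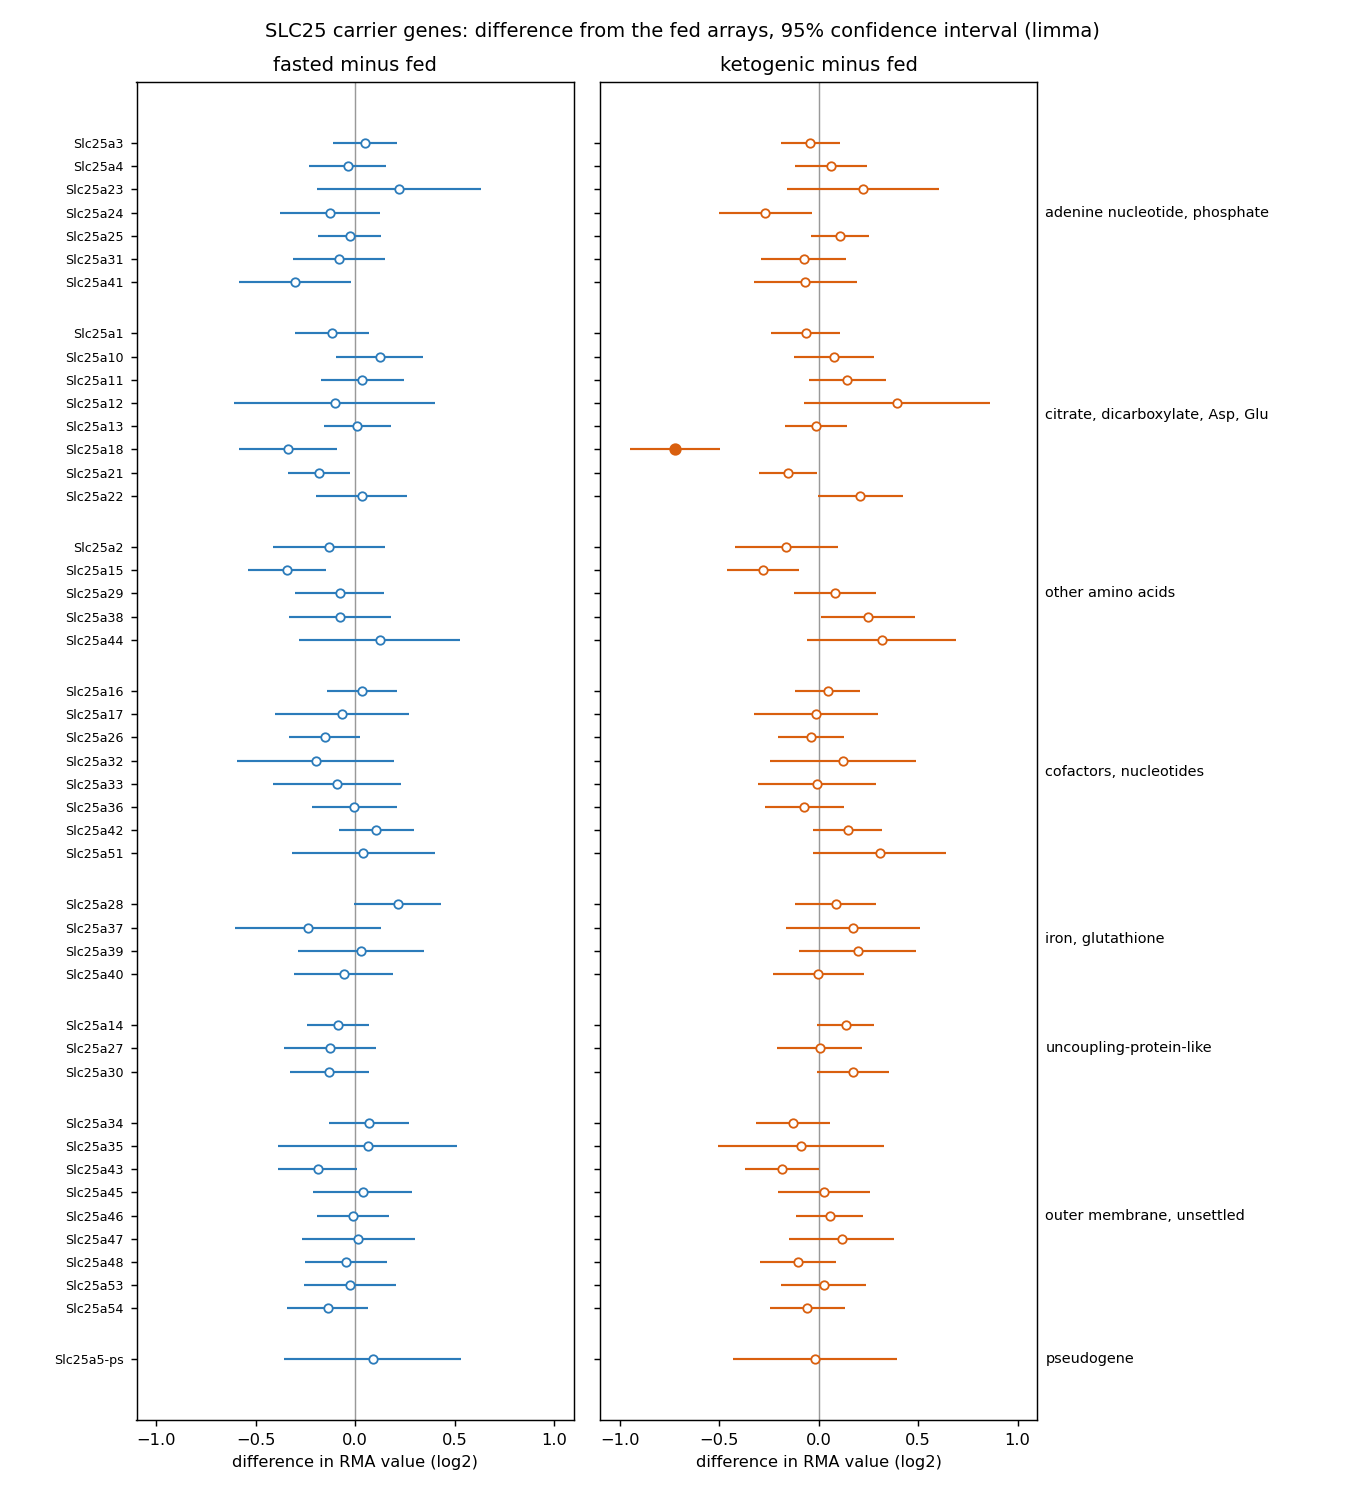
Difference in RMA value (log2, horizontal axis) between fasted and fed (left) and between ketogenic and fed samples (right) for each of the 45 members, grouped by role, with the 95% confidence interval from limma. The filled point, Slc25a18 at -0.72, is the only one with an adjusted p under 0.05.

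Glutamate enters the matrix with a proton through closely related carriers, Slc25a18 and Slc25a22. The Slc25a18 set (6949551; gene on chromosome 6) read 8.24, 8.33, 8.43 and 8.23 on the fed arrays, 8.16, 7.78 and 7.96 on the fasted arrays and 7.57, 7.56, 7.80 and 7.41 on the ketogenic arrays. Each fasted and each ketogenic array was below all 4 fed arrays, and the highest ketogenic array was above the lowest fasted one. The difference between ketogenic and fed samples was -0.72 (SE 0.10, 95% interval -0.95 to -0.50, limma adjusted p = 0.017), which is 0.606 times the fed level (0.517 to 0.709). An exact two-sided permutation test gave p = 0.0286, the smallest that 4 against 4 arrays allow. This unadjusted p follows from the lack of overlap alone, which 10.7% of all genes had in this comparison. The difference between fasted and fed samples was -0.34 (SE 0.11, limma adjusted p = 0.607), and that between fasted and ketogenic samples was 0.38 (SE 0.11, limma adjusted p = 0.244). Leaving out ketogenic array 1, 2 or 4 kept the size of the ketogenic difference (-0.72, -0.72 and -0.67) but ended the call (limma adjusted p = 0.0699, 0.0692 and 0.0733). The methods' t-test, without limma's shared spread, also ended it (adjusted p = 0.0761).

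Astrocyte markers were lower along with Slc25a18 on the ketogenic arrays and differed less after fasting. The marker mean was 8.06 ± 0.09 (SD, n = 4) in fed, 7.996 ± 0.111 (n = 3) in fasted and 7.50 ± 0.12 (n = 4) in ketogenic samples. Taken relative to that mean on the same array, Slc25a18 was at 0.16 to 0.31 in fed, -0.09 to 0.09 in fasted and -0.02 to 0.16 in ketogenic samples. The ketogenic arrays then reached up to the lowest fed array, whereas the fasted arrays lay below all fed ones. The part of the lower astrocyte marker level in the ketogenic difference of Slc25a18, and that of the lower oligodendrocyte marker level in its fasted difference, was not tested.

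The Slc25a22 set (6972204; gene on chromosome 7) read 6.78, 6.42, 6.68 and 6.60 on the fed arrays, 6.74, 6.61 and 6.61 on the fasted arrays and 6.66, 6.90, 6.77 and 6.98 on the ketogenic arrays. All 3 groups overlapped. The ketogenic difference was 0.21 (95% interval -0.00 to 0.42, limma adjusted p = 0.366) and the fasted difference 0.03 (-0.20 to 0.26, limma adjusted p = 0.966). On the log2 scale the signal of Slc25a18 exceeded that of Slc25a22 by 1.46 to 1.91 on the fed, 1.17 to 1.42 on the fasted and 0.43 to 1.02 on the ketogenic arrays, ranges that do not overlap. These ranges describe how far apart both carriers moved and compare no transcript levels, since they come from different probe sets.

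**Figure D2:**
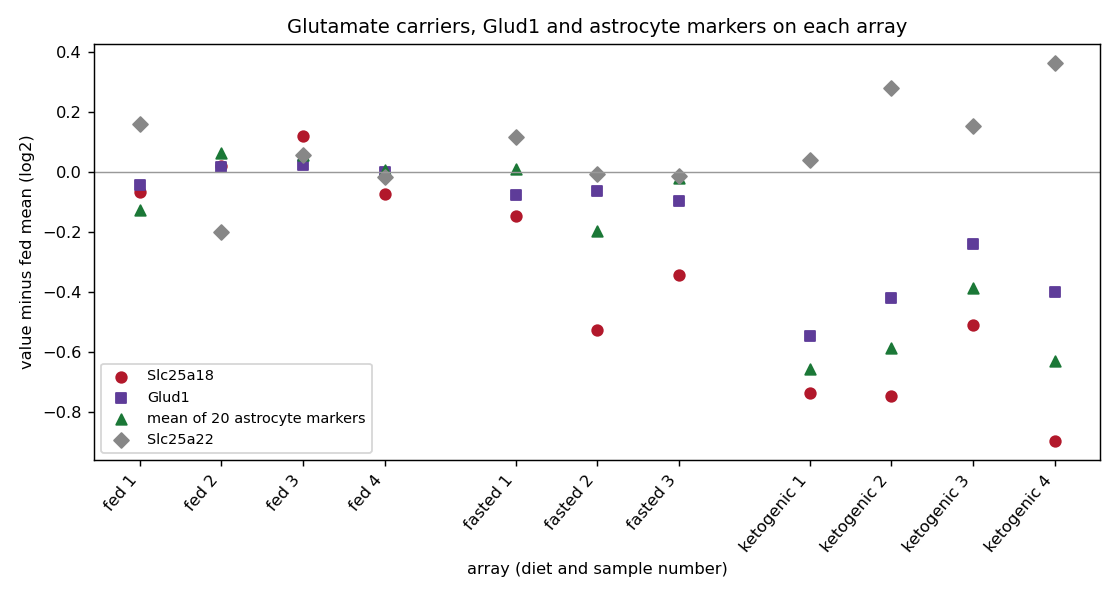
Value on each of the 11 arrays minus the fed mean (log2, vertical axis) for Slc25a18, Slc25a22, Glud1 and the mean of 20 astrocyte markers. On the 4 ketogenic arrays Slc25a18, Glud1 and the marker mean all lie below 0, while Slc25a22 lies above 0.

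Promoter windows of both glutamate carriers are shown because one of them carried the only call and the other did not. They are RefSeq sequences of build GRCm38.p6, reaching from 250 bases before the transcription start to 50 bases after it and printed 5′ to 3′ on the gene's strand, Slc25a18 from chr6:120773518-120773817 (plus strand) and the outermost of 3 listed starts of Slc25a22 from chr7:141437825-141438124 (minus strand). Capitals mark matches to any of 4 motifs searched on both strands, the GC box GGGCGG, the CCAAT box CCAAT, the E-box CACGTG and the NRF1-type sequence TGCGCA.
Slc25a18: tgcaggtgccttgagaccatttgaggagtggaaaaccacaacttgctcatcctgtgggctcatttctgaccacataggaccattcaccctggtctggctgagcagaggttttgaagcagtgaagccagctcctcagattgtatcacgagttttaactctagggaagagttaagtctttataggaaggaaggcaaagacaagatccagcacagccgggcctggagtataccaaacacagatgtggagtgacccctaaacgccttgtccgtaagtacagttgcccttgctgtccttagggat
Slc25a22: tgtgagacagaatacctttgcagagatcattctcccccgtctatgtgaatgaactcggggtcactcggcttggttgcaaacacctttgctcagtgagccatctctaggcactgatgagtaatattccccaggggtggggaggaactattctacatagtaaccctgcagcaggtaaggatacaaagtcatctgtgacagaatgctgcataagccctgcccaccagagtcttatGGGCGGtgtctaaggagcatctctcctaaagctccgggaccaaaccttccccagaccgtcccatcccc

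The Slc25a18 window held none of the 4 motifs, and the Slc25a22 window held a GC box at position -18 from the start. For 34 of the 45 members at least 1 window was listed, 44 windows in all. A GC box was in 36 of these 44 (81.8%) and in 35.7% of all 32851 listed windows, a CCAAT box in 22 of 44 (against 37.4%), an E-box in 8 (18.2%, against 7.15%) and the NRF1-type sequence in 4 (9.09%, against 7.76%). Slc25a18 thus belonged to the minority of carrier windows without a GC box. Base composition differed too. G and C made up 41.7% to 79.0% of a carrier window, and most carrier windows lay above the median of all windows (52.7%). Slc25a18 was at 49.3%. The part of base composition in these motif shares was not tested. A match is a run of letters and not a binding site, and several windows of a gene can overlap.

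Glutamate and aspartate also cross the membrane in exchange for each other through Slc25a12 (aralar) and Slc25a13 (citrin), part of the malate-aspartate shuttle that passes the reducing power of cytosolic NADH to mitochondria. Slc25a12 was read from 6887701 (gene on chromosome 2), which gave 7.78, 6.87, 7.88 and 7.59 on the fed arrays, 7.56, 7.53 and 7.18 on the fasted arrays and 8.08, 7.72, 7.67 and 8.22 on the ketogenic arrays. All fasted arrays lay below all ketogenic arrays, while the fed arrays overlapped both. The ketogenic difference from fed was 0.39 (SE 0.21, limma adjusted p = 0.438) and 0.17 without fed array 2, and that between fasted and ketogenic samples was -0.50 (SE 0.23, limma adjusted p = 0.475). The 4 probe sets of this gene disagreed, with ketogenic differences of 0.39, 0.14, 0.11 and -0.43, and with the median over them the fasted difference turned from -0.10 to 0.28. Slc25a13 (6951440) was below the odorant receptor level, at 3.11 ± 0.09 (SD, n = 4) in fed, 3.12 ± 0.04 (n = 3) in fasted and 3.10 ± 0.07 (n = 4) in ketogenic samples.

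The oxoglutarate and malate exchanger of the same shuttle, Slc25a11 (6789443; chromosome 11), read 7.10, 6.99, 7.08 and 7.30 on the fed, 7.06, 7.09 and 7.30 on the fasted and 7.19, 7.35, 7.19 and 7.31 on the ketogenic arrays. Its groups overlapped, and the ketogenic difference was 0.14 (95% interval -0.05 to 0.34, limma adjusted p = 0.499). Slc25a1, which exports citrate for fatty acid and sterol synthesis, read 6.92, 6.76, 6.95 and 7.04 on the fed, 6.89, 6.68 and 6.83 on the fasted and 6.83, 6.87, 6.91 and 6.79 on the ketogenic arrays (6844310; chromosome 16). Its differences from fed were -0.12 (95% interval -0.31 to 0.07) after fasting and -0.07 (-0.24 to 0.11) on the ketogenic diet (limma adjusted p = 0.805 and 0.765). The dicarboxylate carrier Slc25a10 differed by 0.12 and 0.08.

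Slc25a21, which carries 2-oxoadipate from lysine and tryptophan breakdown, read 3.26, 3.37, 3.18 and 3.29 on the fed, 3.11, 3.02 and 3.15 on the fasted and 3.16, 3.07, 3.10 and 3.16 on the ketogenic arrays (6800986; chromosome 12). Every fasted and ketogenic array lay below every fed array, by differences of -0.18 and -0.16 in the means (limma adjusted p = 0.687 and 0.328), but all 11 values were below the odorant receptor level.

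Of a list of 8 enzymes, which held shuttle enzymes together with Glud1, 7 were measured. Glud1 alone passed the threshold, with a negative ketogenic difference, and none passed after fasting. Glud1, which frees ammonium from glutamate in the matrix, read 7.25, 7.31, 7.31 and 7.29 on the fed, 7.21, 7.23 and 7.19 on the fasted and 6.74, 6.87, 7.05 and 6.89 on the ketogenic arrays. Its ketogenic difference was -0.40 (SE 0.07, limma adjusted p = 0.0332), with every ketogenic array below all other arrays. Relative to the astrocyte marker mean Glud1 was at -0.82 to -0.69 in fed and -0.66 to -0.54 in ketogenic samples, so that the order of the groups turned around. The transaminases Got1 and Got2 differed by 0.07 and 0.18 between ketogenic and fed samples, and mitochondrial malate dehydrogenase Mdh2 by 0.15, none past the threshold. Glycerophosphate dehydrogenase Gpd1 and the related Gpd1l, named after their values were seen, differed by 0.42 (SE 0.10, limma adjusted p = 0.0841) and 0.28 (SE 0.09, limma adjusted p = 0.203). Every ketogenic array lay above all fed arrays for both, and neither passed. The median over the 7 enzymes was 0.13 after fasting and 0.15 on the ketogenic diet, beside -0.02 and 0.01 over all genes.

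Among carriers of other amino acids, Slc25a15, the ornithine and citrulline exchanger known from the urea cycle of liver, read below the fed arrays on all arrays of both diets. Its set (6980949; chromosome 8) read 5.52, 5.29, 5.33 and 5.14 on the fed, 4.97, 4.97 and 5.001 on the fasted and 4.98, 5.10, 4.997 and 5.09 on the ketogenic arrays. The fasted difference was -0.34 (SE 0.09, 95% interval -0.54 to -0.15, limma adjusted p = 0.459) and the ketogenic difference -0.28 (SE 0.08, -0.46 to -0.10, limma adjusted p = 0.159). Neither passed, and both comparisons share the fed arrays. Fasted and ketogenic arrays overlapped, with a difference of -0.06 between their means. Relative to the astrocyte marker mean Slc25a15 was at -2.93 to -2.42 in fed, -3.10 to -2.90 in fasted and -2.68 to -2.34 in ketogenic samples, so that the ketogenic mean (-2.46) was then above the fed mean (-2.74) and the fasted mean (-3.02) below it. Oligodendrocyte markers were also at lower levels after fasting, and the part of either marker level was not tested.

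Slc25a38, the glycine carrier that feeds heme synthesis, had fed values of 4.72 to 4.84, fasted values of 4.36 to 4.87 and ketogenic values of 4.91 to 5.10. Its ketogenic arrays lay above all others, with a difference of 0.25 from fed that did not pass (limma adjusted p = 0.34). The branched-chain amino acid carrier Slc25a44 differed by 0.32 on the ketogenic diet, with fed array 2 at 7.04 and the other fed arrays at 7.60 to 7.89. The basic amino acid carrier Slc25a29 and the ornithine carrier Slc25a2 had ketogenic differences of 0.08 and -0.16.

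For ATP export and phosphate supply, Slc25a4 (ANT1), which exchanges ADP for ATP, read 7.86, 8.08, 8.17 and 8.08 on the fed, 7.99, 8.03 and 8.01 on the fasted and 7.98, 8.22, 8.10 and 8.15 on the ketogenic arrays (6982158; chromosome 8). Its differences from fed were -0.04 (95% interval -0.23 to 0.16) and 0.06 (-0.12 to 0.24). Slc25a3, the phosphate carrier, read 6.30, 6.48, 6.44 and 6.37 on the fed, 6.39, 6.53 and 6.42 on the fasted and 6.32, 6.43, 6.35 and 6.33 on the ketogenic arrays (6775983; chromosome 10), with differences of 0.05 (-0.11 to 0.21) and -0.04 (-0.19 to 0.11). For both carriers all groups overlapped, and the intervals of these differences from fed leave out a change of 0.25 in either direction. Those between fasted and ketogenic samples do not, at -0.29 to 0.10 for Slc25a4 and -0.07 to 0.2529 for Slc25a3. The adenine nucleotide carrier Slc25a5 (ANT2) was on sets shared with Gm5560 and is therefore not among the 45. Its 3 sets had ketogenic differences of 0.04, 0.15 and -0.01 and fasted differences of 0.07, 0.09 and 0.05.

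The calcium-dependent ATP-Mg and phosphate carriers set the size of the matrix adenine nucleotide pool. Slc25a24 (6900450; chromosome 3) read 4.36, 4.58, 4.13 and 4.49 on the fed, 4.21, 4.17 and 4.42 on the fasted and 4.18, 3.98, 4.21 and 4.11 on the ketogenic arrays, with overlap between all groups. Its ketogenic difference was -0.27 (SE 0.11, limma adjusted p = 0.292). Slc25a23 differed by 0.22 after fasting and by 0.23 (limma adjusted p = 0.607) on the ketogenic diet, with fed array 2 at 6.82 against 7.51 to 7.63 on the other fed arrays, and Slc25a25 differed by -0.03 and 0.11. Slc25a41 and the germ-cell ADP/ATP carrier Slc25a31 were below the odorant receptor level.

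**Figure D3:**
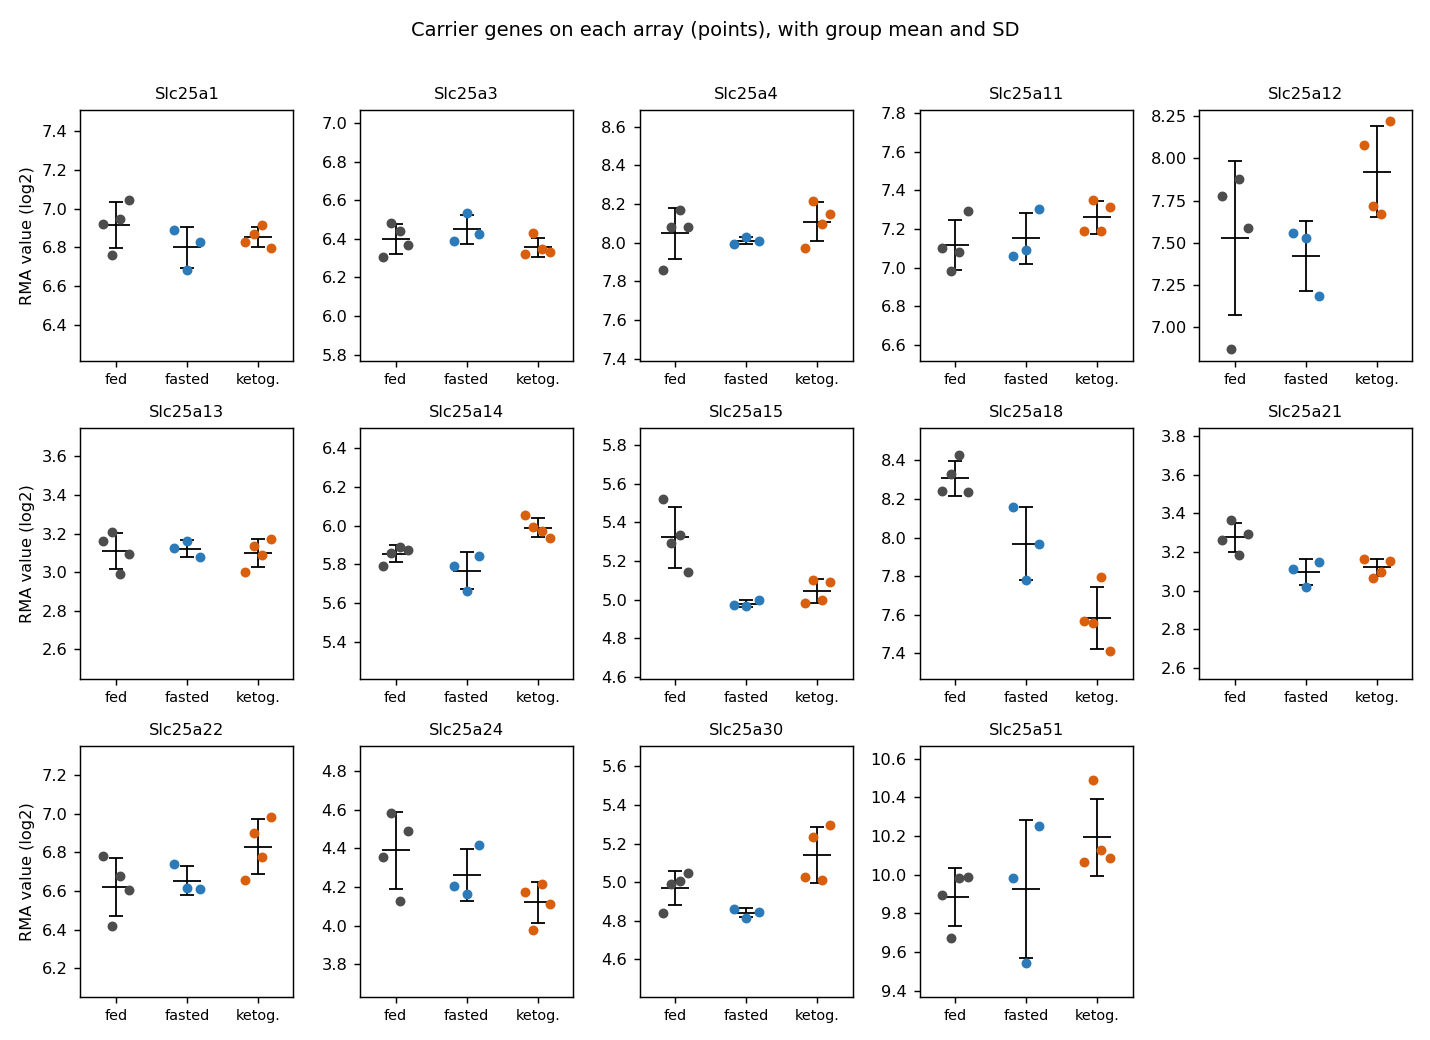
RMA value (log2, vertical axis) of 14 carrier genes on each array, with the group mean and SD (fed, n = 4; fasted, n = 3; ketogenic, n = 4). Slc25a18 and Slc25a15 have all fasted and all ketogenic arrays below the fed arrays, whereas Slc25a3 and Slc25a4 overlap in all groups.

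Carriers of cofactors and nucleotides had no call. Across the 8 measured members the median ketogenic difference was 0.02 and the median fasted difference -0.03, and none had an unadjusted p under 0.05 in either. Slc25a51, the NAD carrier, had the only set of this group whose ketogenic arrays did not overlap the fed arrays, at 10.06, 10.49, 10.13 and 10.09 against 9.90, 9.67, 9.98 and 9.99, with 9.98, 9.54 and 10.25 on the fasted arrays. The difference was 0.31 (SE 0.15, limma adjusted p = 0.398). Of the 10 sets with neighbouring numbers, 9 belong to genes of chromosome 7, while RefSeq places Slc25a51 on chromosome 4, so it is uncertain that 6964387 reads this gene. A set that the annotation shares between Slc25a51 and 9130208E07Rik averaged 6.1 in fed and 6.3 in ketogenic samples, a difference of 0.17. Another, shared between Itgax and Slc25a51, averaged 3.28 in fed samples, below the odorant receptor level, with a ketogenic difference of -0.04. The coenzyme A carrier Slc25a42 differed by 0.11 and 0.15, the folate and FAD carrier Slc25a32 by -0.20 and 0.12, and the S-adenosylmethionine carrier Slc25a26 by -0.15 and -0.04. The remaining members, Slc25a16 (linked to coenzyme A), Slc25a17 (of peroxisomes) and the pyrimidine nucleotide carriers Slc25a33 and Slc25a36, ran from -0.09 to 0.03 after fasting and from -0.07 to 0.04 on the ketogenic diet.

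Mitoferrins bring iron into mitochondria for heme and iron-sulfur clusters. Slc25a28 (mitoferrin 2) was at 5.40 to 5.54 on the fasted and 5.08 to 5.36 on the fed arrays, without overlap, and the difference was 0.21 (limma adjusted p = 0.708). Slc25a37 (mitoferrin 1) was at 4.99 to 5.21 on the fasted, 4.98 to 5.63 on the fed and 5.27 to 5.69 on the ketogenic arrays, so that only the fasted and ketogenic arrays were apart (difference -0.41, limma adjusted p = 0.409). The glutathione carriers Slc25a39 and Slc25a40 differed by 0.20 and -0.00 on the ketogenic diet.

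Carriers named after their likeness to uncoupling proteins, Slc25a14, Slc25a27 and Slc25a30, were each lower in fasted than in ketogenic samples by the group means on the sets used. That also held for 32 of the 45 members and for 12296 of 20259 genes. Slc25a30 (6826018; chromosome 14) read 4.84, 4.99, 5.004 and 5.05 on the fed, 4.86, 4.82 and 4.84 on the fasted and 5.03, 5.24, 5.01 and 5.30 on the ketogenic arrays. Slc25a14 (7011051; chromosome X) read 5.79, 5.86, 5.89 and 5.88 on the fed, 5.79, 5.66 and 5.85 on the fasted and 6.06, 5.99, 5.97 and 5.94 on the ketogenic arrays. For both, the ketogenic arrays lay above all fasted arrays. The differences between fasted and ketogenic samples were -0.30 (SE 0.09, limma adjusted p = 0.252) and -0.22 (SE 0.07, limma adjusted p = 0.291), and that of Slc25a27 was -0.13. None passed. Of the uncoupling proteins proper, Ucp1 and Ucp3 did not pass in any comparison. Ucp1 averaged 3.05 to 3.24 by diet, below the odorant receptor level, and no value of Ucp2 is given here.

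The 9 members at the outer membrane or without a settled substrate had fasted differences between -0.19 and 0.07 and ketogenic differences between -0.18 and 0.12. Slc25a43 was the lowest in both and lay on average below the odorant receptor level. Slc25a46, an outer membrane protein involved in mitochondrial shape, differed by -0.01 and 0.06. The pseudogene Slc25a5-ps differed by 0.09 and -0.02.

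As a family the carriers had small differences. The median ketogenic difference over the 45 members was 0.03 (24 positive, 21 negative), beside 0.01 over all genes, and the median fasted difference was -0.05 (17 positive, 28 negative), beside -0.02. Between fasted and ketogenic samples the median was -0.06 (13 positive, 32 negative), beside -0.04. Fasted differences ran from -0.34 (Slc25a15) to 0.22 (Slc25a23) and ketogenic differences from -0.72 (Slc25a18) to 0.39 (Slc25a12). Both diets were compared with the same fed arrays, and 16 members were lower and 12 higher than fed in both.

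Counts at an unadjusted p under 0.05 were close to those of all genes. After fasting 4 members had such a p, all lower (Slc25a15, Slc25a18, Slc25a21 and Slc25a41), which is 8.89% of the family, and 7.07% of all genes had one. Slc25a21 and Slc25a41 lay below the odorant receptor level. In a limma fit to genes above that level, 2 of 35 members and 1018 of 13218 genes had such a p after fasting. On the ketogenic diet there were 5 (11.1%, beside 13.9% of all genes), with Slc25a38 higher and Slc25a15, Slc25a18, Slc25a21 and Slc25a24 lower. Between fasted and ketogenic samples there were 5 (11.1%, beside 10.6%), with Slc25a18 higher and Slc25a14, Slc25a30, Slc25a37 and Slc25a38 lower.

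Groups did not overlap for 6 members (13.3%) in each comparison. Among all genes this held for 6.43% between fasted and fed, 10.7% between ketogenic and fed and 13.9% between fasted and ketogenic samples. The 6 that separated fasted from fed arrays were Slc25a15, Slc25a18, Slc25a21, Slc25a26, Slc25a28 and Slc25a43, and those that separated ketogenic from fed arrays were Slc25a14, Slc25a15, Slc25a18, Slc25a21, Slc25a38 and Slc25a51. Slc25a21 and Slc25a43 lay on average below the odorant receptor level, and it is uncertain which gene the Slc25a51 set reads. Of the 35 members above that level, 4 (11.4%) separated fasted from fed arrays and 5 (14.3%) ketogenic from fed arrays. The matching share of all genes above that level was not computed, and 6.43% and 10.7% cover genes of every level. Slc25a12, Slc25a14, Slc25a30, Slc25a37, Slc25a38 and Slc25a39 separated fasted from ketogenic arrays, all 6 with lower fasted values on the set used. For Slc25a12 the other sets did not go that way, with fasted minus ketogenic differences of 0.66, 0.31 and 0.0041.

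**Figure D4:**
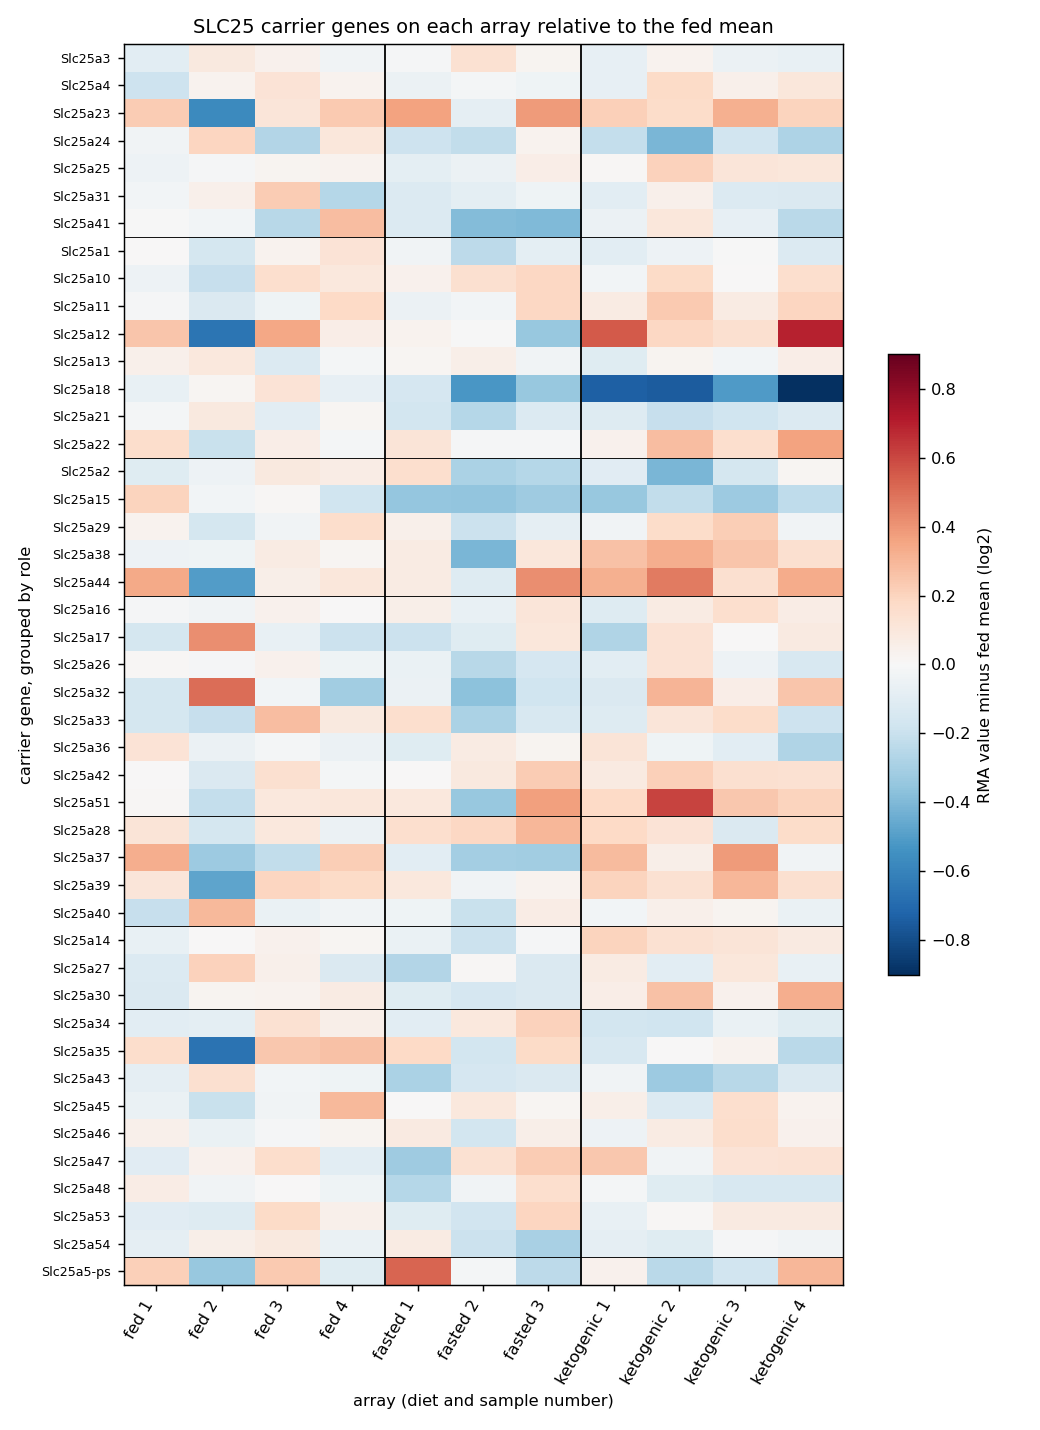
RMA value minus the fed mean (log2, colour) of the 45 members (rows, grouped by role) on each of the 11 arrays (columns, grouped by diet). Slc25a18 is blue on all ketogenic arrays, and fed array 2 departs from the other fed arrays in Slc25a12, Slc25a23, Slc25a35 and Slc25a44.

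Transporters of the inner membrane outside the family served as a list for comparison. Of 18 genes 14 were measured and none passed in any comparison, with a median ketogenic difference of -0.04. Mpc1, a subunit of the pyruvate carrier, differed by -0.17 after fasting and -0.27 on the ketogenic diet, and the serine transporter Sfxn1 by -0.06 in both. Proteins that bring newly made carriers into the membrane, 9 of 13 measured, also had no call, with medians of -0.05 after fasting and 0.10 on the ketogenic diet. The receptor Tomm70a, which binds carrier precursors, differed by 0.02 and 0.10.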

How the data were processed

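Hippocampal astrocyte TRAP samples were measured on Affymetrix mouse exon arrays after NuGEN Pico amplification, 1 array per sample. The authors processed the scans by RMA in Partek (genome mm9, per the submitters' processing notes; versions are not given in the sources used here), which subtracts background, brings arrays to a common distribution and summarises probes. The deposited values (0.856 to 13.6) were read as log2, since the base is not stated. Of 115830 probe sets, 25539 had 1 symbol and 2300 had several. One set per gene, that with the highest mean, gave 20259 genes. Diets were compared with limma 3.58.1 (R 4.3.3) on all 11 arrays, with Benjamini-Hochberg adjustment at 0.05 and no replicate term. The limma fit was tested on simulated data. Array number, not sequencing depth, limits the precision.

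The members and lists were chosen with earlier results of these data known. Members given in full were those past the threshold, the 3 with the lowest p in each comparison and a list of carriers central to energy and glutamate metabolism. From other lists, genes past the threshold and the first 3 were named, and Ucp1 and Ucp3 are the first of theirs. Alternatives were another choice of set, a filter at the odorant receptor level, centring, quantile normalization, array weights, a variance trend, fits to 2 groups, a replicate block, the t-test named in the methods, and leaving out arrays. Centring over all probe sets was added after seeing the data. Same-numbered arrays were not treated as paired in the main fit. The correlation of their deviations was over 0.1 in 2 of 10 pairs (r from -0.12 to 0.18), and pairs of unlike number ran from -0.19 to 0.12. These values do not settle whether arrays are paired by number, and the Slc25a18 call was lost with the replicate block.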

Additional observations from a re-analysis of the deposited data

Results flagged for a closer look

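The signal of the set named Slc25a51 on ketogenic array 2 was 10.49, apart from the other ketogenic arrays at 10.06 to 10.13, and the gap took up 0.845 of the range of the group. It was the only such value among 28 groups of 4 arrays examined (14 genes, fed and ketogenic), and chance alone marks about 1 in 20 groups.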

How the results depend on the processing

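The Slc25a18 difference on the ketogenic diet stayed negative in every alternative, but many of these could not change it. The t-test, the variance trend, the fit to 2 groups and the filter leave it at -0.72. So does the median over probe sets, since the gene has 1 set, and leaving out fasted arrays does not touch it. It was -0.78 with quantile normalization, -0.73 with array weights, -0.71 with centring and -0.68 with centring over all probe sets. The family's ketogenic count of 1 became 0 with the replicate block (adjusted p = 0.0575) and with the methods' t-test (adjusted p = 0.0761, at an unadjusted p of 0.000219), and was 0 to 1 when single arrays were left out. By the methods' t-test 5, 8 and 6 members had an unadjusted p under 0.05 between fasted and fed, ketogenic and fed, and fasted and ketogenic samples, and 0 after Benjamini-Hochberg adjustment. Of 10 same-number pairs 2 had a correlation of deviations over 0.1, and the arrays were not treated as paired. Of 11 arrays, 6 correlated best with their own number, but these are mutual pairs counted from both sides. They are fed 1 with ketogenic 1, fed 2 with fasted 2 and fed 3 with fasted 3. Ketogenic array 1 correlated nearly as well with fasted array 2 (0.0919, against 0.0925 with fed array 1). Fed array 2 and fasted array 2 are those of low weight. Whether arrays are paired is not settled. The family's median ketogenic difference became 0.0758 with the filter on low values, which left 35 members.

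Over all genes the ketogenic count of 179 became 282 with the filter, 387 with array weights, 79 with only 2 groups fitted, 71 with centring over all probe sets, 12 with the methods' t-test, 1 with the replicate block and 1 to 183 with single arrays left out. The count of 57 between fasted and ketogenic samples became 88, 188, 34, 31, 6, 6 and 8 to 162 in the same order. The count of 0 between fasted and fed samples was 0 or 1 (1433 genes at an unadjusted p under 0.05 in limma, 1033 by the methods' t-test).

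Slc25a18 on the ketogenic diet was the only single-gene result with a call in the main fit, and several alternatives cannot change a difference. Of 764 recomputed differences of single genes 728 kept direction and call, a count that therefore does not measure stability. A further 5 lost the call (all Slc25a18) and 31 changed sign without a call. The cause was not tested. With the median over probe sets Slc25a12 went to 0.28 (fasted against fed) and 0.16 (fasted against ketogenic). Slc25a22 went to -0.0037 after fasting with array weights and -0.0142 without fed array 2 and fasted array 2. Slc25a13 on the ketogenic diet went to 0.0002 with centring, 0.0279 with centring over all probe sets, 0.0047 with quantile normalization, 0.0224 with array weights and 0.0192 without both arrays. Slc25a4 went to -0.0169 with quantile normalization on the ketogenic diet. Between fasted and ketogenic samples Slc25a21 went to 0.005 with quantile normalization and 0.0115 without both arrays, and Slc25a1 to 0.0071 without both. With single arrays left out, fasted differences ran from -0.0386 to 0.0964 (Slc25a11), -0.0343 to 0.086 (Slc25a22), -0.12 to 0.23 (Slc25a51), -0.10 to 0.0036 (Slc25a4), -0.32 to 0.016 (Slc25a12) and -0.0305 to 0.0415 (Slc25a13). Ketogenic ones ran from -0.0013 to 0.11 (Slc25a4) and -0.0528 to 0.0205 (Slc25a13), and those between fasted and ketogenic samples from -0.10 to 0.0071 (Slc25a1), -0.0531 to 0.0115 (Slc25a21) and -0.0104 to 0.047 (Slc25a13).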
